A study of Homo sapiens with 12 samples.

Results

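The genes described here are the 37 genes encoded by the human mitochondrial genome, chosen as every row of the deposited count tables whose chromosome is the mitochondrial one. They are 37 of 60649 gene rows, and comprise 13 protein genes, 2 ribosomal RNA genes and 22 transfer RNA genes. Their RNA was counted in 12 libraries of SBC3, an established small cell lung cancer line that was grown as spheroids. Per the treatment label, 3 libraries each came from spheroids labelled Control, from spheroids given teriflunomide, from spheroids given lurbinectedin and from spheroids given teriflunomide together with lurbinectedin, the last labelled Teriflunomide/Lurbinectedin and called the combination below. Neither dose nor exposure time is given in the labels, and nothing in them says that the 3 libraries of a group came from separate cultures, so p-values measure the spread between these libraries, which may be technical. All results are from 1 cell line.

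The mitochondrial genome is a small circle that is copied into RNA in both directions from promoters in its control region. The heavy-strand transcript begins just before MT-TF and runs through both rRNAs and nearly all mRNAs to MT-TT, and the light-strand transcript runs the other way, from MT-TP through MT-ND6 to MT-TQ. The long precursors are cut at the tRNAs that sit between the other genes, and most mRNAs then receive a poly(A) tail. Steady levels depend on both synthesis and decay. The 13 proteins are core subunits of the respiratory chain and the ATP synthase, the 2 rRNAs form the mitochondrial ribosome, and the 22 tRNAs serve its translation. Teriflunomide inhibits DHODH, the mitochondrial enzyme of pyrimidine synthesis that passes electrons to ubiquinone, and lurbinectedin binds DNA and blocks transcription in the nucleus.

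All 37 genes had the position and length that GENCODE 29 gives on the GRCh38 build, and the sequences below were read from that release. In all, 28 genes belong to the heavy-strand transcript and are annotated on the plus strand, and 9 belong to the light-strand transcript, which are MT-ND6 and 8 tRNAs annotated on the minus strand. The first and last genes that could be tested on each transcript are shown because the results are set against gene order below. On the heavy-strand transcript they are MT-TF (tRNA for phenylalanine, chrM:577-647, plus strand) and MT-TT (threonine, chrM:15888-15953, plus strand). On the light-strand transcript they are MT-TP (proline, chrM:15956-16023, minus strand) and MT-TQ (glutamine, chrM:4329-4400, minus strand). Each is written 5′ to 3′ in the sense of its RNA, and capitals mark the anticodon, found as the middle of a loop closed by a stem.
MT-TF: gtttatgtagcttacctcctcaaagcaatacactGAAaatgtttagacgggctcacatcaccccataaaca
MT-TT: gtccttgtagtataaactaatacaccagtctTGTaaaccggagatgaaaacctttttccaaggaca
MT-TP: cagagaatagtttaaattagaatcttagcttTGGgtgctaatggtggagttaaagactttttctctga
MT-TQ: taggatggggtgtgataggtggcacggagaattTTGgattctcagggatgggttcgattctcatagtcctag

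The mRNA ends are shown because the library selects polyadenylated RNA, and whether they affect capture was not tested. Of the 13 protein genes as annotated, 7 encode a complete stop codon and 6 (MT-ND1, MT-ND2, MT-CO3, MT-ND3, MT-ND4 and MT-CYB) end in 1 or 2 of its bases, so that the added A residues complete it. The last 18 bases of an example of each kind are shown, with the encoded part of the stop codon in capitals. MT-CO1 and MT-ND6 end in AGA and AGG. MT-ATP6 is counted among the 7, but the last base of its stop codon (chrM:9207) is also the first base of MT-CO3. Only 1 of these 2 mRNAs can keep that base when they are cut apart.
MT-ND1: cattccccctcaaaccTA
MT-CYB: aaatactcaaatgggccT
MT-CO1: gtatacataaaatctAGA
MT-ND6: attgctcgggggaatAGG

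MT-ATP8 and MT-ATP6 share 46 bases (chrM:8527-8572, plus strand), so reads over that stretch may be assigned to neither or to both. It is shown with the start codon of MT-ATP6 and the stop codon of MT-ATP8 in capitals. MT-ND4L and MT-ND4 overlap by 7 bases, and MT-ATP6 and MT-CO3 share the base at chrM:9207.
MT-ATP8/MT-ATP6 overlap: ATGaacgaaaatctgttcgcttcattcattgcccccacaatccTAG

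Near-identical copies of mitochondrial genes in the nucleus can take reads from their parents. A copy with at least 97% identity, or with a run of 100 bases in common, was found on chromosome 1 for 7 protein genes: MT-ND1, MT-ND2, MT-CO1, MT-CO2, MT-ATP8, MT-ATP6 and MT-CO3. The most counted copy, MTATP6P1, differs from MT-ATP6 at 10 of 681 bases (98.5% identity). A stretch of 90 bases with 4 of these differences in capitals shows how few positions tell the 2 genes apart (chrM:8629-8718 and chr1:633798-633887, both plus strand). None was found for MT-ND3, MT-ND4L, MT-ND4, MT-ND5, MT-ND6 or MT-CYB. The copies searched, taken by symbol, were those of protein genes, so copies of the rRNAs and tRNAs were not examined.
MT-ATP6: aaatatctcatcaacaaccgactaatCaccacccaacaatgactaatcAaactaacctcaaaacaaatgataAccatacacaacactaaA
MTATP6P1: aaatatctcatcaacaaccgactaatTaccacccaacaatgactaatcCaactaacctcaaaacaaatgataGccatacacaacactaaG

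Libraries held 23206414 to 33222162 counts, a 1.43-fold range in depth. Teriflunomide replicate 3 and combination replicate 2 stood apart from their groups in mitochondrial counts, so results that rest on them are given with and without them. The combined share of the nuclear RNAs MALAT1 and NEAT1 was 0.0327% to 0.0363% in controls, 0.0417% to 0.0531% with teriflunomide and 0.102% to 0.179% in the 6 libraries with lurbinectedin. The share of histone genes was 0.0113% in teriflunomide replicate 3 and 0.0225% to 0.0381% elsewhere. The part of these values in the results below was not tested. Of the markers of small cell lung cancer, SYP, ENO2, YAP1 and NEUROD1 were detected in every library, INSM1 and UCHL1 were at 0 counts in all 12, and NCAM1 and CHGA were at or near 0. Of the leukocyte and fibroblast markers, CD3E and LUM were at 0 in all libraries and PTPRC and DCN did not exceed 0.103 CPM, whereas COL1A1 and COL1A2 were present at 77.6 to 305 CPM. CPM of these markers are relative to total counts, whereas CPM given beside fold changes below are relative to the scaled library size. The mean of COL1A2 was 295 CPM in controls, 247 CPM with teriflunomide, 92.7 CPM with lurbinectedin and 112 CPM with the combination, and its part in the results was not tested.

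Counts on the mitochondrial genes came almost wholly from the mRNAs and rRNAs of the heavy-strand transcript. The 13 protein genes took 5.15%, 5.87% and 5.72% of all counts in controls, 7.06%, 7.10% and 20.2% under teriflunomide, 12.5%, 12.8% and 10.3% under lurbinectedin and 11.1%, 19.4% and 10.1% in the combination group. All lurbinectedin and combination libraries lay above all controls, and teriflunomide replicate 3 lay above every other library. The 2 rRNA genes took 1.10%, 1.30% and 1.24% in controls, 1.36%, 1.32% and 2.46% under teriflunomide, 4.22%, 4.26% and 3.45% under lurbinectedin and 3.46%, 5.52% and 3.01% in the combination group. Every library with lurbinectedin lay above every library without it, teriflunomide replicate 3 included. The 22 tRNA genes took 0.00383% to 0.00479% in controls and 0.0111% to 0.0193% in the 6 libraries with lurbinectedin. The library kit selects polyadenylated RNA, so these are levels in that fraction, and counts over the tRNA genes of 59 to 75 bases cannot be told apart as mature tRNA or uncut precursor.

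**Figure D1:**
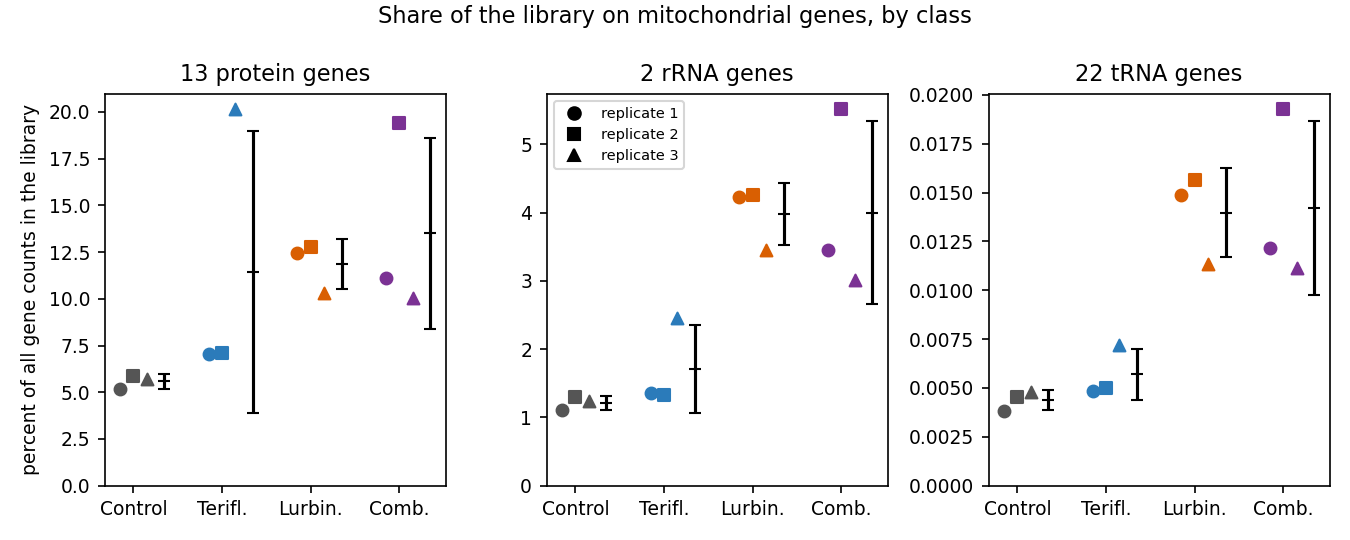
Percent of all gene counts in each library on the 13 protein, 2 rRNA and 22 tRNA genes (separate vertical axes, each from 0), with the symbol giving the replicate and the black bar the mean ± SD of 3 libraries. The rRNA share of every lurbinectedin or combination library (3.01% to 5.52%) exceeded that of every other library (1.10% to 2.46%), whereas teriflunomide replicate 3 had the highest protein-gene share, at 20.2%.

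Summed over the 37 genes, the share differed by 9.04 percentage points between lurbinectedin and control and by 6.37 points between teriflunomide and control, each at p = 0.1 in an exact two-sided permutation test of 3 against 3 libraries, the smallest p that design allows (adjusted p = 0.167 over 5 comparisons). Without replicate 3 the teriflunomide difference was 1.63 points. The combination differed from control by 10.7 points, or 7.02 points without its replicate 2. The combination differed from lurbinectedin alone by 1.68 points (exact permutation p = 0.9, adjusted p = 0.9), and by -2.02 points without combination replicate 2. The combination differed from teriflunomide by 4.36 points (exact permutation p = 0.5, adjusted p = 0.625), or 9.10 points without teriflunomide replicate 3 and 0.658 points without combination replicate 2. These are shares of a closed total, so a higher mitochondrial share and a lower nuclear share are one measurement, and in bulk RNA fewer cells of a type and less RNA per cell cannot be told apart.

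Levels between genes were compared per length, as CPM (relative to total counts) per kb of gene. In controls MT-CO3, a cytochrome c oxidase subunit, was highest at 9553 ± 523 (SD, n = 3), followed by MT-ND4 at 7575 ± 628 and MT-CO1 at 7324 ± 487, and MT-ND4 lay above MT-CO1 in all 3 control libraries. MT-ND5, a complex I subunit, was the lowest heavy-strand mRNA at 1856 ± 144, with MT-ND3 next above it at 2062 ± 32.9. MT-ND6, the one mRNA of the light-strand transcript, was lowest of all at 346 ± 18. Levels in a library that selects polyadenylated RNA also depend on how each RNA is captured, which was not tested, for MT-ND6 in particular. The 16S rRNA MT-RNR2 stood at 6794 ± 627 and the 12S rRNA MT-RNR1 at 1617 ± 118 in this polyadenylated fraction.

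With lurbinectedin the order of these levels was different. MT-RNR2 was highest at 21506 ± 2672 and MT-CO1 next at 20638 ± 2285, with MT-RNR2 above MT-CO1 in 3 of 3 libraries. MT-ND1, a complex I subunit encoded just after the rRNAs, stood at 13775 ± 1868, and lay above MT-ND4 at 12327 ± 1627 in all 3 libraries, whereas in controls MT-ND1 at 4622 ± 288 lay below MT-ND4 in all 3. Genes of a library share its depth, so the SD between libraries is not the error of a difference between genes. MT-CYB, the cytochrome b of complex III and the last mRNA of the heavy-strand transcript, stood at 5421 ± 559 against 4061 ± 293 in controls. The ratio of MT-ND1 to MT-CYB per length was 1.15, 1.13 and 1.13 in controls, 2.54, 2.62 and 2.44 under lurbinectedin, 2.28, 3.01 and 2.03 in the combination group, and 1.23, 1.18 and 1.45 under teriflunomide. No library with lurbinectedin overlapped with a library without it in this ratio, which was chosen after its values were seen.

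**Figure D2:**
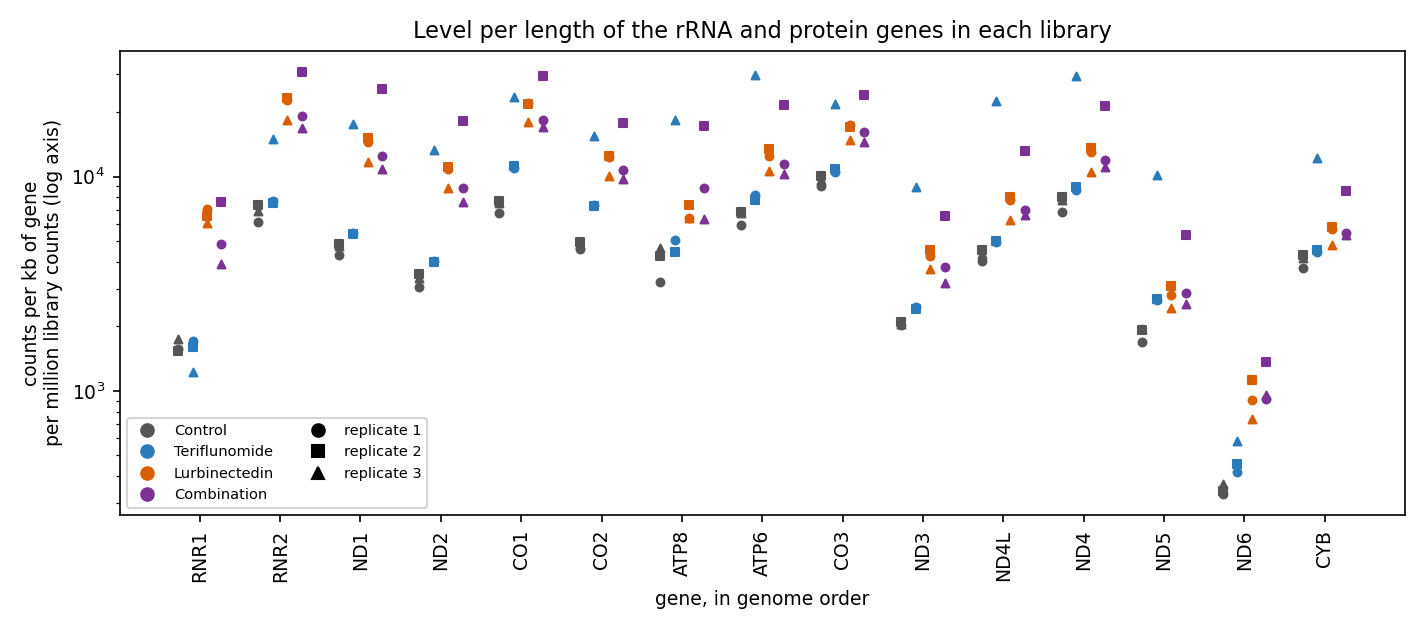
CPM per kb of gene (log axis) for the 2 rRNA and 13 protein genes in genome order, with 1 point per library, colours for the treatment and symbols for the replicate. MT-ND6 is lowest in every group, and MT-RNR1 shows the widest gap between the libraries with lurbinectedin and the rest.

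Fold changes, all given on the log2 scale with Benjamini-Hochberg adjusted p-values, were tested with edgeR's quasi-likelihood test over 16683 genes, of which 32 were mitochondrial: all 13 protein genes, both rRNAs and 17 of 22 tRNAs. The other 5 tRNAs (MT-TN, MT-TG, MT-TR, MT-TS2 and MT-TL2) had at most 10 counts in any library. Of the 17 that were kept, 14 had at least 10 counts in every control library, and MT-TF, MT-TK and MT-TH passed the filter through the groups in which they were higher, so the tRNA counts describe the genes tested and not the class.

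With lurbinectedin both rRNAs, the first mRNAs of the heavy-strand transcript and most tRNAs tested were higher than in control. Of the 32 genes, 23 were called higher and none lower at an adjusted p under 0.05, against 36.0% of all genes tested called higher, 35.7% called lower and 71.6% called in either direction. The called genes were both rRNAs, 7 of 13 protein genes and 14 of the 17 tRNAs tested. These tRNAs include MT-TF, MT-TK and MT-TH, whose comparison with control is not independent of the filter that kept them. The median log2 fold change was 1.14 over the 13 protein genes against 0.05 over all genes tested. All 13 protein genes, both rRNAs and 14 of the 17 tRNAs were higher in every lurbinectedin library than in every control, where 42.4% of all genes tested were higher and 40.8% lower with no overlap.

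MT-RNR1, the RNA of the small mitochondrial ribosomal subunit, stood at 1347, 1369 and 1532 CPM in controls and 7601, 6702 and 6046 CPM with lurbinectedin, with no overlap. Its log2 fold change was 2.26 (SE 0.25, adjusted p = 1.99e-06). MT-RNR2, the RNA of the large subunit, stood at 8629.6, 10743 and 9834 CPM in controls and 39873, 38930.3 and 30111 CPM with lurbinectedin, a log2 fold change of 1.90 (SE 0.35, adjusted p = 2.65e-04). Both rRNAs were higher in all 3 lurbinectedin libraries than in any control, and both were called in every alternative run for this comparison.

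Complex I is the proton-pumping NADH dehydrogenase, to which 7 of the 13 proteins belong. MT-ND1 stood at 3711, 4332 and 4135 CPM in controls and 15558, 15545 and 11676 CPM with lurbinectedin, with no overlap, and its log2 fold change was 1.81 (SE 0.50, adjusted p = 0.00497). MT-ND2, which follows it on the transcript, changed by 1.87 (SE 0.50, adjusted p = 0.00431), and MT-ND3 by 1.25 (SE 0.49, adjusted p = 0.0344). MT-ND6, from the opposite strand, stood at 157, 168 and 176 CPM in controls and 534, 629 and 408 CPM with lurbinectedin and rose by 1.65 (SE 0.25, adjusted p = 4.41e-05). The 3 complex I genes of the distal part were not called: MT-ND4L had a log2 fold change of 1.02 (adjusted p = 0.107), MT-ND4 of 0.94 (adjusted p = 0.0865) and MT-ND5 of 0.82 (adjusted p = 0.160).

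The 3 subunits of cytochrome c oxidase, the terminal oxidase of the chain, were all called higher with lurbinectedin. MT-CO1 stood at 9429, 11072 and 10631 CPM in controls and 38235, 36076 and 29078 CPM with the drug, a log2 fold change of 1.73 (SE 0.36, adjusted p = 6.34e-04). MT-CO2 changed by 1.51 (SE 0.36, adjusted p = 0.00178) and MT-CO3, further along, by 1.01 (SE 0.33, adjusted p = 0.0145). The ATP synthase subunits were not called, with log2 fold changes of 0.98 (adjusted p = 0.118) for MT-ATP8 and 1.14 (adjusted p = 0.0559) for MT-ATP6. MT-CYB stood at 3846, 4579 and 4349 CPM in controls and 7301, 7076 and 5711 CPM with lurbinectedin, which did not overlap, but its log2 fold change of 0.65 (adjusted p = 0.151) did not pass the test. All 4 groups share 1 estimate of the spread in this fit. Without teriflunomide replicate 3 it called 11 of the 13 protein genes, and a fit of only the control and lurbinectedin libraries called all 13. Without any 1 control, or without lurbinectedin replicate 1 or 2, MT-ND3 lost its call and 6 protein genes were called.

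MT-TF, the tRNA at the very start of the heavy-strand transcript, was kept by the filter through the groups in which it was higher. It had 0, 1 and 1 counts in the control libraries and 53, 40 and 32 with lurbinectedin, which gives a ratio of pooled, scaled counts of 79.0 with a 95% exact interval of 21.4 to 660 that covers counting error only. MT-TP, the first gene of the light-strand transcript, stood at 4.52, 5.48 and 5.50 CPM in controls and 27.4, 27.3 and 15.5 CPM with lurbinectedin, a log2 fold change of 2.18 (SE 0.31, adjusted p = 2.28e-05). MT-TI, between MT-ND1 and MT-ND2, rose by 2.60 (SE 0.37, adjusted p = 2.15e-05). MT-TL1, between MT-RNR2 and MT-ND1, rose by 2.17 (SE 0.35, adjusted p = 7.02e-05), MT-TE by 1.61 (SE 0.22, adjusted p = 1.28e-05) and MT-TS1 by 1.57 (SE 0.29, adjusted p = 2.52e-04), the last pair on the light-strand transcript. MT-TT at the end of the heavy-strand transcript, singled out after its values were seen, stood at 2.95, 3.31 and 3.11 CPM in controls and 3.68, 4.54 and 2.69 CPM with lurbinectedin, and was not called at 0.22 (SE 0.22, adjusted p = 0.386). Scaled by library size alone its log2 fold change was -0.02, where the median of all genes moved from 0.05 to -0.18. The counting is not stated to use strand, so light-strand genes and RNA antisense to them cannot be told apart.

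**Figure D3:**
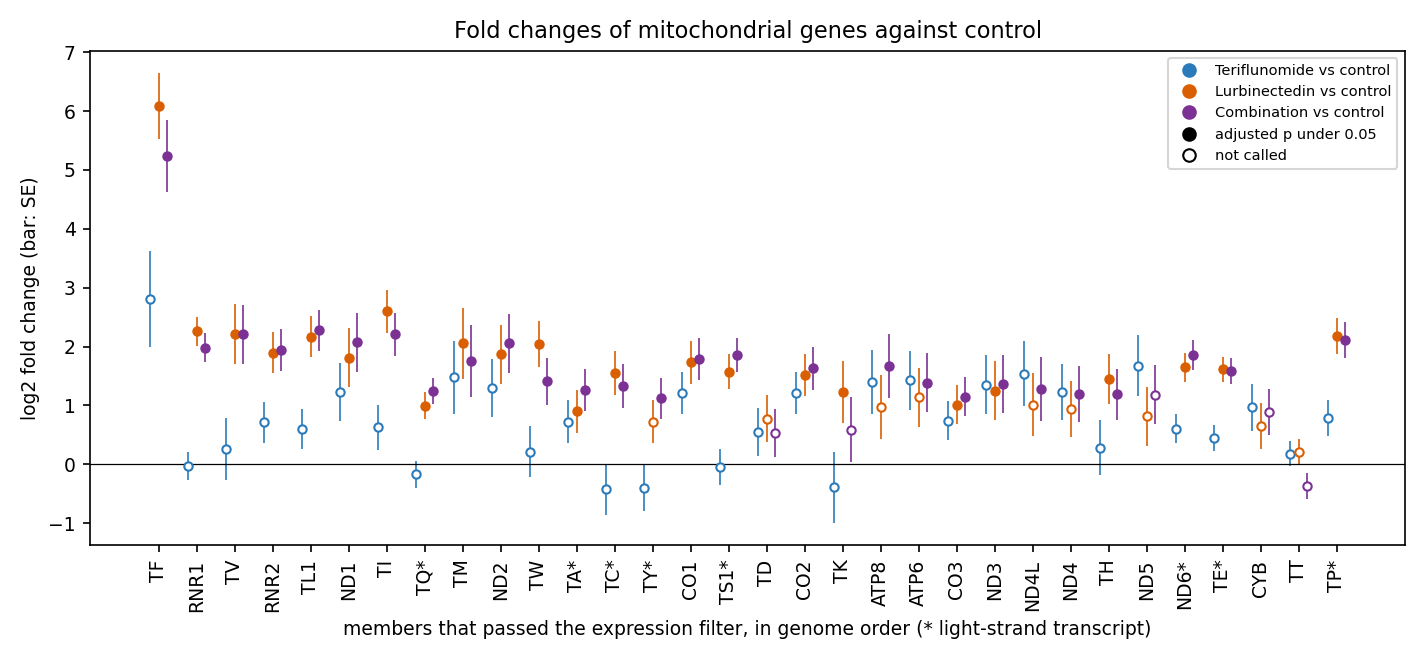
Log2 fold change against control for the 32 mitochondrial genes tested, in genome order, with bars of 1 SE and filled symbols for an adjusted p under 0.05 in edgeR. The lurbinectedin and combination values fall from left to right among the genes of the heavy-strand transcript, from MT-RNR1 at 2.26 and 1.98 to MT-TT at 0.22 and -0.37, and no teriflunomide value is filled.

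The combination gave the same direction for nearly all genes. Against control, 27 of 32 genes were called higher and none lower, where 34.1% of all genes tested were called higher, 34.4% lower and 68.4% in either direction. With scaling by library size alone 26 were called higher and 1 lower. The called genes were both rRNAs, 11 of 13 protein genes and 14 of 17 tRNAs tested, and the median log2 fold change of the 13 protein genes was 1.39 against 0.04 over all genes. The tRNAs called include MT-TF and MT-TH, whose comparison with control is not independent of the filter that kept them. All 13 protein genes, both rRNAs and 14 of the 17 tRNAs lay above every control in every combination library, where 38.7% of all genes tested were higher and 38.5% lower with no overlap. MT-RNR1 stood at 4598, 8706 and 3476 CPM, a log2 fold change of 1.98 (SE 0.25, adjusted p = 7.84e-06), and MT-RNR2 rose by 1.94 (SE 0.35, adjusted p = 2.47e-04). MT-ND1 rose by 2.07 (adjusted p = 0.00233), MT-ND2 by 2.05 (adjusted p = 0.00259), MT-CO1 by 1.79 (adjusted p = 5.50e-04), MT-CO2 by 1.63 (adjusted p = 0.00116) and MT-ND6 by 1.85 (adjusted p = 1.75e-05). These 5 kept their call without combination replicate 2.

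The other protein genes depended on that library in this comparison. MT-ATP8 at 1.67 (adjusted p = 0.0145), MT-ATP6 at 1.39 (adjusted p = 0.0254), MT-CO3 at 1.15 (adjusted p = 0.00742), MT-ND3 at 1.37 (adjusted p = 0.0245), MT-ND4 at 1.2 (adjusted p = 0.0362) and MT-ND4L at 1.28 (adjusted p = 0.0495) were called with all libraries, and without combination replicate 2 all 6 lost their call. Leaving out 1 control library left 6 or 7 of the 13 protein genes called. MT-ND5 at 1.19 (adjusted p = 0.0513) and MT-CYB at 0.89 (adjusted p = 0.0604) were not called. Among tRNAs, MT-TF had 25, 29 and 25 counts against 0, 1 and 1 in controls, a ratio of 44.5 with an interval of 11.9 to 374. That interval covers counting error only, and MT-TF was kept by the filter through the groups in which it was higher. MT-TL1 rose by 2.28 (adjusted p = 5.26e-05), MT-TI by 2.21 (adjusted p = 1.10e-04), MT-TP by 2.11 (adjusted p = 3.39e-05), MT-TS1 by 1.85 (adjusted p = 6.28e-05) and MT-TE by 1.58 (adjusted p = 1.69e-05). MT-TT stood at 2.28, 3.20 and 1.82 CPM and was not called at -0.37 (SE 0.22, adjusted p = 0.155). Comparisons with control share the 3 control libraries, so the fold changes of lurbinectedin and of the combination are not independent of each other.

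Teriflunomide alone gave no call among the 32 genes, where 6.01% of all genes tested were called, 3.88% higher and 2.13% lower. In edgeR 16 of the 32 had an unadjusted p under 0.05, where 4143 of all 16683 genes tested did. DESeq2 called 0 members, and the edgeR fit with no expression filter called 18, all higher, with no share over all genes given for that fit. The median log2 fold change was 1.23 over the 13 protein genes and 0.03 over all genes tested. Of the 13, 12 (all but MT-ATP8) were higher in every teriflunomide library than in every control, where 20.1% of all genes tested were higher and 16.7% lower with no overlap between the groups. MT-ND5 stood at 2767, 3272 and 3231 CPM in controls and 4413, 4334 and 20866 CPM with teriflunomide, a log2 fold change of 1.68 (SE 0.51, adjusted p = 0.0692). MT-CO1 stood at 15547, 15359 and 41063 CPM, with 1.21 (SE 0.35, adjusted p = 0.0597). In both genes replicates 1 and 2 lay close together above the controls and replicate 3 lay far above them.

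The other protein genes had log2 fold changes with teriflunomide of 0.60 (MT-ND6) to 1.54 (MT-ND4L). Without replicate 3 the value was 0.50 for MT-ND5, 0.57 for MT-CO1 and 0.12 for MT-CYB, and no member was called, whereas leaving out replicate 1 gave 6 calls, without replicate 2 there were 3, without combination replicate 2 there were 2 and without lurbinectedin replicate 1 there was 1. The rRNAs stood at 1499, 1365 and 1316 CPM for MT-RNR1 and 10953, 10466 and 26488 CPM for MT-RNR2. MT-RNR1 overlapped with controls and had a log2 fold change of -0.02 (SE 0.24, adjusted p = 0.965), and MT-RNR2 one of 0.71 (SE 0.34, adjusted p = 0.216). The sign of the MT-RNR1 value depends on single libraries, at 0.04 without control replicate 3 and 0.01 without teriflunomide replicate 3.

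Set against teriflunomide, the combination was called higher for rRNA and tRNA genes and for 1 mRNA. In all, 14 genes were called higher and 1 lower, where 35.2% of all genes tested were called higher, 35.8% lower and 70.9% in either direction. MT-ND6, MT-RNR1 and 9 tRNAs lay higher with no overlap and MT-TT lower, against 35.1% and 35.6% of all genes tested. MT-RNR1 rose by 2.01 (SE 0.25, adjusted p = 6.51e-06) and MT-RNR2 by 1.23 (SE 0.35, adjusted p = 0.00598). MT-ND6 rose by 1.25 (SE 0.25, adjusted p = 4.58e-04) and was the one protein gene of 13 that was called, the others having log2 differences between -0.49 (MT-ND5) and 0.84 (MT-ND1). Of the 17 tRNAs tested 11 rose, with MT-TS1 at 1.89 (adjusted p = 4.81e-05), MT-TQ at 1.41 (adjusted p = 6.22e-05), MT-TE at 1.14 (adjusted p = 2.45e-04), MT-TL1 at 1.67 (adjusted p = 5.66e-04) and MT-TC at 1.76 (adjusted p = 0.00108). MT-TF is among the 11, with 7, 4 and 6 counts under teriflunomide and 25, 29 and 25 in the combination group, and its test is not independent of the filter that kept it. MT-TT fell by 0.55 (SE 0.22, adjusted p = 0.0373), from 3.52, 3.8 and 3.30 CPM with teriflunomide to 2.28, 3.20 and 1.82 CPM. That call was lost without teriflunomide replicate 1 or 2, without lurbinectedin replicate 1 and without combination replicate 1 or 3, with values between -0.79 and -0.38 over all libraries left out in turn. The number of calls rests on teriflunomide replicate 3: without it 29 members were called, 12 of them protein genes.

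Adding teriflunomide to lurbinectedin changed no member by the test. Of 32 genes 0 were called in edgeR and 0 in DESeq2, and 0 of all 16683 genes were called in edgeR (0%). An unadjusted p under 0.05 in edgeR was found for 2 of the 32, and for 2599 of all 16683. The 2 were MT-TF, with a log2 difference of -0.85 (SE 0.31, adjusted p = 0.236), and MT-TT, with -0.59 (SE 0.23, adjusted p = 0.250), both named after their values were seen. The interaction, which is the teriflunomide effect in the presence of lurbinectedin minus that in its absence, was called for 0 of 32 members in edgeR and DESeq2, where 0.258% of all genes were called. In edgeR 5 members had an unadjusted p under 0.05, as did 1726 of all 16683 genes. Of all genes 0.0360% were called higher and 0.222% lower. With no expression filter 14 members were called lower in the interaction, with no share over all genes given for that fit. The interaction estimates of the 13 protein genes ranged from -1.30 (MT-ND5) to -0.40 (MT-ND6).

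The makeup of the mitochondrial counts was compared beside their total. Each measure was compared over the 2 drugs as a factorial design, with libraries exchanged only within a level of the other drug (exact two-sided permutation test, 400 arrangements, smallest p = 0.005), and p-values were adjusted over 38 tests of 19 measures. Lurbinectedin passed an adjusted p under 0.05 for 13 measures and teriflunomide for 4. The mitochondrial share of the library, also among the 19, passed for neither drug, and its groups overlapped. Its difference was 6.70 points for lurbinectedin (adjusted permutation p = 0.12) and 4.02 points for teriflunomide (adjusted permutation p = 0.438). The rRNAs made up 17.7%, 18.1% and 17.8% of mitochondrial counts in controls, 16.1%, 15.7% and 10.9% under teriflunomide, 25.3%, 25.0% and 25.1% under lurbinectedin and 23.7%, 22.2% and 23.0% in the combination group. All 6 libraries with lurbinectedin lay above all 6 without it, and the mean difference was 8.01 points (adjusted permutation p = 0.0146). Leaving out 1 library at a time gave 7.17 to 8.49 points, the lowest without teriflunomide replicate 3.

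Teriflunomide went the other way in this share, with a difference of -2.89 points (adjusted permutation p = 0.0146), and of -2.04 points without replicate 3. Within the rRNAs, MT-RNR1 made up 13.5%, 11.3% and 13.5% in controls, 12%, 11.5% and 4.73% under teriflunomide, 16.0%, 14.7% and 16.7% under lurbinectedin and 13.4%, 13.1% and 12.4% in the combination group. The lurbinectedin difference was 3.29 points (adjusted permutation p = 0.0146) and the teriflunomide difference -3.09 points (adjusted permutation p = 0.0356). These groups overlapped. Without teriflunomide replicate 3, which had the lowest share, the teriflunomide difference was -1.91 points and no longer passed, nor did it without control replicate 1 or 3 or without any 1 combination library. The tRNA genes made up 0.0319% to 0.0687% of mitochondrial counts without lurbinectedin and 0.0774% to 0.0918% with it, which did not overlap (adjusted permutation p = 0.0146). Their teriflunomide difference was -0.0103 points (adjusted permutation p = 0.0447), and the groups did not overlap without lurbinectedin but overlapped with it. Of the libraries left out in turn, only teriflunomide replicate 1, teriflunomide replicate 2 and lurbinectedin replicate 3 left this difference past the threshold, and it did not pass with the replicate number as a block.

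By strand, the 9 light-strand genes made up 0.303%, 0.274% and 0.302% of mitochondrial counts in controls, 0.278%, 0.309% and 0.146% under teriflunomide, 0.314%, 0.375% and 0.308% under lurbinectedin and 0.362%, 0.309% and 0.422% in the combination group. The lurbinectedin difference was 0.0797 points (adjusted permutation p = 0.0146), with overlap at the edge of the groups. It ranged from 0.0552 to 0.0959 points with 1 library left out, and it no longer passed without any 1 control or combination library, without teriflunomide replicate 3 (the lowest value) or without lurbinectedin replicate 2. No teriflunomide difference was called in this measure (-0.00843 points, adjusted permutation p = 0.9). The 8 light-strand tRNAs took 37.7% of tRNA counts on average without lurbinectedin and 34.5% with it, a difference that was not called (adjusted permutation p = 0.410).

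Among the 13 protein genes, the shares of the proximal genes were higher with lurbinectedin and those of the distal genes lower. MT-ND1 took 7.98%, 7.90% and 7.88% of the protein-gene counts in controls, 7.42%, 7.23% and 8.37% under teriflunomide, 11.1%, 11.4% and 10.8% under lurbinectedin and 10.7%, 12.7% and 10.3% in the combination group. MT-CYB took 8.27%, 8.35% and 8.29% in controls, 7.21%, 7.28% and 6.90% under teriflunomide, 5.21%, 5.18% and 5.29% under lurbinectedin and 5.62%, 5.03% and 6.08% in the combination group. For neither gene did any library with lurbinectedin overlap with one without it. Expressed as points of the protein-gene total, the lurbinectedin difference was 3.37 for MT-ND1, 2.63 for MT-ND2, 4.84 for MT-CO1 and 0.124 for MT-ND6. It was -1.11 for MT-ATP6, -0.500 for MT-ND4L, -3.69 for MT-ND4, -2.31 for MT-ND5 and -2.32 for MT-CYB. All 9 passed, with adjusted permutation p of 0.0146 for 7 of them, 0.0271 for MT-ATP6 and 0.0356 for MT-CO1.

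The other 4 protein genes, MT-CO2, MT-ATP8, MT-CO3 and MT-ND3, were not called for lurbinectedin (adjusted permutation p from 0.133 to 0.507). Since the shares sum to 100%, a higher share of one gene entails lower shares elsewhere. The count of measures called fell from 13 to 8 without combination replicate 1 or without combination replicate 3, and was 10 without combination replicate 2 and 14 without teriflunomide replicate 3. For teriflunomide the only protein gene called was MT-ND5, at 5.95%, 5.96% and 6.16% in controls, 6.81%, 6.83% and 9.14% under teriflunomide, 4.08%, 4.37% and 4.29% under lurbinectedin and 4.70%, 4.98% and 4.59% in the combination group. Its teriflunomide difference was 1.04 points (adjusted permutation p = 0.0146), or 0.651 points without teriflunomide replicate 3. The teriflunomide count of measures fell from 4 to 2 without control replicate 1 or 3, without teriflunomide replicate 3 and without any 1 combination library.

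The change in share followed the position of the gene along the heavy-strand transcript. For each library the log2 ratio of a gene's share over the mean control share was set against its distance from MT-TF, over the 12 protein genes of that transcript. In lurbinectedin replicate 1 this ratio was 0.49 for MT-ND1, 0.56 for MT-ND2, 0.43 for MT-CO1 and 0.20 for MT-CO2. It was -0.48 for MT-ATP8, -0.23 for MT-ATP6, -0.30 for MT-CO3, -0.12 for MT-ND3, -0.30 for MT-ND4L, -0.38 for MT-ND4, -0.56 for MT-ND5 and -0.67 for MT-CYB. The first 4 genes were above the control mean and the last 8 below it. The same split at MT-CO2 held in the other 2 lurbinectedin libraries, and MT-ATP8 was the one gene that crossed it in combination replicates 1 and 2.

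Spearman's rho between position and this ratio was -0.85, -0.88 and -0.94 in the 3 lurbinectedin libraries and -0.98, -0.90 and -0.97 in the 3 combination libraries. It was -0.50, -0.28 and 0.19 with teriflunomide and -0.24, 0.06 and 0.09 in the controls themselves, whose ratios are taken against a mean that includes them. The correlation is across 12 genes that share a library and neighbours, so it is a description and carries no p-value. With the 7 genes that have a near-identical nuclear copy left out, rho over the remaining 5 was -1 in each lurbinectedin library and -1, -0.9 and -1 with the combination. These 5 genes all lie after MT-CO3, and each was below the control mean in every library with lurbinectedin. They describe the order within that distal stretch only, so they cannot show whether the split at MT-CO2 holds without the copied genes.

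**Figure D4:**
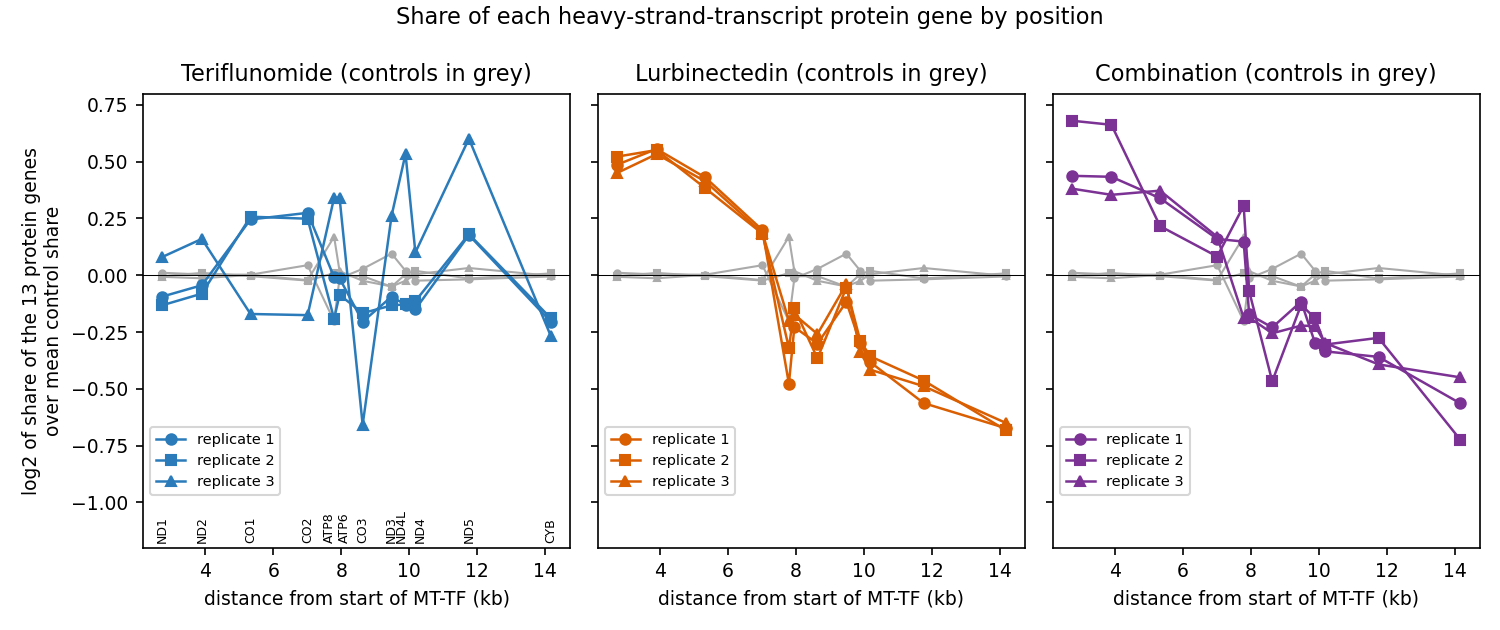
Log2 ratio of each gene's share of the 13 protein genes over the mean control share (vertical axis) against distance from the start of MT-TF in kb (horizontal axis) for the 12 protein genes of the heavy-strand transcript, with 1 line per library and controls in grey in each panel. All 6 lines with lurbinectedin run downward from MT-ND1 (0.38 to 0.68) to MT-CYB (-0.72 to -0.45), and the teriflunomide lines go from -0.13 to 0.08 at MT-ND1 to -0.27 to -0.19 at MT-CYB.

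The rRNAs and tRNAs were then included, a description added after the protein genes were seen. MT-TF, MT-TK and MT-TH, kept by the filter through the groups in which they were higher, were left out. Over the other 21 tested genes of the heavy-strand transcript, rho between position and the log2 ratio of CPM over the control mean was -0.86, -0.89 and -0.89 with lurbinectedin, -0.89, -0.85 and -0.82 with the combination, and 0.09, 0.46 and 0.41 with teriflunomide. On the light-strand transcript, with distance counted the other way from MT-TP, rho over its 8 tested genes was -0.95, -0.81 and -0.60 with lurbinectedin, -0.86, -0.71 and -0.79 with the combination, and -0.55, -0.40 and -0.36 with teriflunomide. Against teriflunomide, the log2 fold changes of the combination gave a rho of -0.85 over all 24 tested heavy-strand genes, MT-TF, MT-TK and MT-TH included. Over the 8 light-strand genes that rho was 0.14, so the order on this strand was not seen in that comparison. On that strand the log2 fold change with lurbinectedin was 2.18 for MT-TP, 1.61 for MT-TE and 1.65 for MT-ND6 near its start. It was 1.57 for MT-TS1 in the middle and 0.90 for MT-TA and 0.999 for MT-TQ near its end. MT-TY at 0.72 and then MT-TC at 1.55 lie between MT-TS1 and MT-TA, and the value of MT-TY, the lowest of the 8, is out of this order. Several of these genes had few counts, with MT-TC at 13, 10 and 17 and MT-TY at 20, 26 and 26 in the controls.

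Teriflunomide replicate 3 and combination replicate 2 both had higher levels of all 13 protein genes and MT-RNR2 than the rest of their group, and they differed in direction at MT-RNR1. Relative to the mean of replicates 1 and 2, teriflunomide replicate 3 had shares of the library 4.51-fold as high for MT-ND4L, 3.86-fold for MT-ATP8, 3.82-fold for MT-ND5 and 3.26-fold for MT-ND1. The ratio was 2.13 for MT-CO1, 2.05 for MT-CO3, 1.98 for MT-RNR2, 1.33 for MT-ND6 and 0.736 for MT-RNR1. Thus 12 heavy-strand mRNAs were at least 2.05-fold as high in that library while the 12S rRNA was lower. Combination replicate 2, relative to the mean of replicates 1 and 3, had ratios between 1.45 (MT-ND6) and 2.27 (MT-ATP8) for the 13 protein genes and 1.73 for MT-RNR1. Each is 1 library, so these values have no replicate check.

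**Figure D5:**
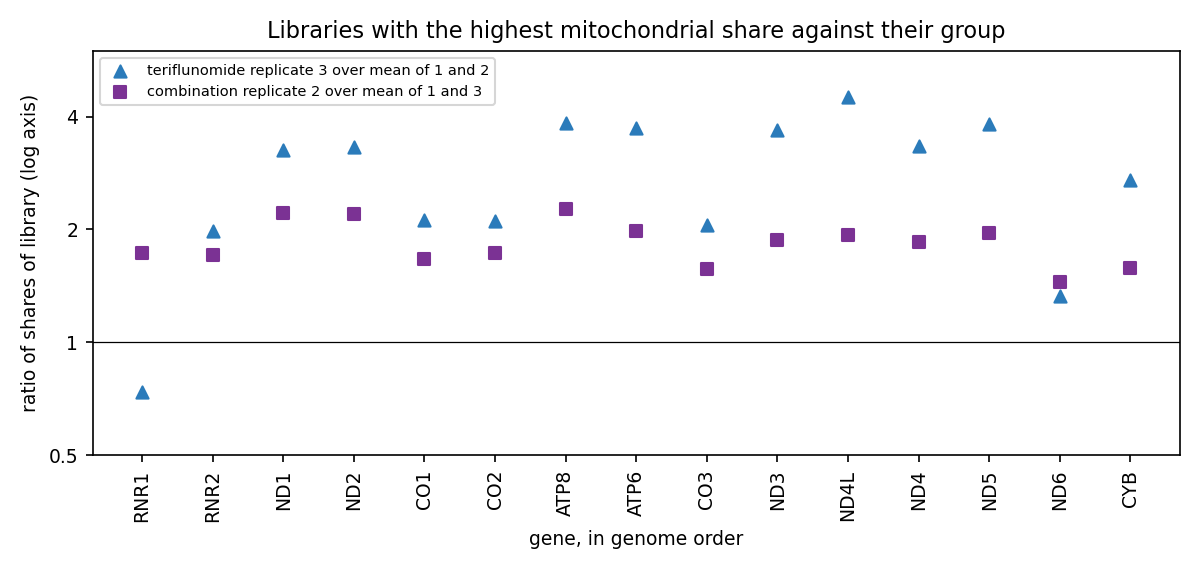
Ratio of each gene's share of the library in teriflunomide replicate 3 over the mean of replicates 1 and 2 (triangles) and in combination replicate 2 over the mean of replicates 1 and 3 (squares), on a log axis, for the rRNA and protein genes in genome order. The triangles spread from 0.736 for MT-RNR1 to 4.51 for MT-ND4L, whereas the squares lie between 1.45 and 2.27.

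Counts on the nuclear copies were compared with those on their mitochondrial parents. Among 404 listed copies 87 had a count, and 4 copies on chromosome 1 (MTATP6P1, MTCO2P12, MTND2P28 and MTCO1P12) held 99.2% of 620061 counts. MTATP6P1 had 12146, 13913 and 14630 counts in controls, 18912, 17928 and 115622 under teriflunomide, 23555, 28789 and 23900 under lurbinectedin and 23267, 51881 and 24934 in the combination group. Per 100 counts on MT-ATP6 these were 10.4 to 11.3 in controls and teriflunomide replicates 1 and 2, 17.1 in teriflunomide replicate 3, and 10.9 to 12.4 in the libraries with lurbinectedin. MTCO2P12 likewise stood at 10.6 per 100 counts on MT-CO2 in teriflunomide replicate 3 and at 5.46 to 7.01 elsewhere. MTND2P28 stood at 1.83 per 100 counts on MT-ND2 in teriflunomide replicate 3 and at 2.56 to 3.0 elsewhere, and MTCO1P12 stood at 0.0577 per 100 counts on MT-CO1 in teriflunomide replicate 3, at 0.0832 in combination replicate 2 and at 0.145 to 0.333 elsewhere. In teriflunomide replicate 3 the first pair of copies was thus high and the second pair low relative to the parents. Reads of the copies and of their parents could not be told apart here.

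Nuclear genes that make, cut and stabilise mitochondrial RNA were described from a list of 46 such genes, all of which passed the expression filter. Lurbinectedin raised 28 and lowered 5, where 36.0% of all genes tested were called higher and 35.7% lower. The median of the list, as a log2 fold change, was 0.56 against 0.05 over all genes tested. The combination raised 22 and lowered 8 against control (median 0.29 against 0.04), where 34.1% of all genes were called higher and 34.4% lower. Teriflunomide raised 0 and lowered 3 (median -0.13 against 0.03), where 3.88% of all genes were called higher and 2.13% lower. In the combination against lurbinectedin edgeR called 0, DESeq2 called 2, and 11 had an unadjusted p under 0.05 in edgeR, where 2599 of all 16683 genes did. Without teriflunomide replicate 3, however, edgeR called 16 of the 46. In the interaction edgeR called 0, and 2 were called without that library. There 1 had an unadjusted p under 0.05 with all libraries, where 1726 of all 16683 genes did.

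Of 12 genes listed under transcription and genome copying, 8 rose with lurbinectedin and none fell. Among these 8, POLRMT, TFAM, TFB2M and MTERF1 act in transcription and 3 in replication or upkeep of the genome (TWNK, MGME1 and POLG). The last of the 8, MTERF4, was listed with them, and a role of it in transcription is not implied. POLRMT, the mitochondrial RNA polymerase, stood at 56.1 ± 2.52 CPM (SD, n = 3) in controls, 39.4 ± 14.6 under teriflunomide, 108 ± 5.17 with lurbinectedin and 78.9 ± 12.7 with the combination, and rose with lurbinectedin by 0.95 (SE 0.22, adjusted p = 0.00139). TFAM, which packages the genome and acts at its promoters, rose by 0.63 (adjusted p = 0.00346), and TFB2M, the promoter-melting factor, by 0.70 (adjusted p = 4.15e-05). TEFM, the elongation factor, was not called at 0.20 (adjusted p = 0.137). The replicative helicase TWNK rose by 1.82 (adjusted p = 4.11e-08) and the exonuclease MGME1 by 1.68 (adjusted p = 2.24e-09). With the combination MGME1 rose by 1.49 (adjusted p = 8.74e-09), TWNK by 1.37 (adjusted p = 8.23e-07), TFAM by 0.58 (adjusted p = 0.00583) and TFB2M by 0.28 (adjusted p = 0.0331), and POLRMT was not called at 0.49 (adjusted p = 0.0570).

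For processing, 10 of 17 genes rose with lurbinectedin and 1 fell. That gene was PRORP, the catalytic subunit of the RNase P that cuts tRNAs from the precursor, at 7.24, 9.03 and 6.66 CPM in controls and 0.388, 0.430 and 0.509 CPM with lurbinectedin. Its log2 fold change was -4.08 (SE 0.28, adjusted p = 1.37e-08), and -2.95 (SE 0.24, adjusted p = 1.15e-07) with the combination.

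For stability and decay, 10 of 17 rose with lurbinectedin and 4 fell. LRPPRC, which binds and stabilises mitochondrial mRNAs, stood at 602, 623 and 585 CPM in controls and 332, 342 and 358 CPM with lurbinectedin and fell, with a log2 fold change of -0.81 (SE 0.09, adjusted p = 1.53e-06). PNPT1, a subunit of the RNA-degrading complex, fell, with a log2 fold change of -0.74 (adjusted p = 6.02e-05). FASTKD5, which acts at junctions without a tRNA, rose by 1.44 (adjusted p = 5.82e-08), whereas FASTKD1 fell at -0.98 (adjusted p = 2.36e-06) and FASTKD2, which binds the 16S rRNA, at -0.40 (adjusted p = 0.00140). SLIRP, the partner of LRPPRC, at 0.08 (adjusted p = 0.698) and the poly(A) polymerase MTPAP at -0.17 (adjusted p = 0.180) were not called.

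With the combination LRPPRC changed by -0.96 (adjusted p = 3.51e-07), PNPT1 by -0.82 (adjusted p = 2.66e-05), MTPAP by -0.45 (adjusted p = 0.00230), FASTKD5 by 1.24 (adjusted p = 3.22e-07), FASTKD1 by -0.85 (adjusted p = 1.01e-05) and FASTKD2 by -0.55 (adjusted p = 1.04e-04). With teriflunomide the 3 genes that fell were TFB2M at -0.48 (adjusted p = 0.0218), LRPPRC at -0.35 (adjusted p = 0.0334) and TWNK at -0.49 (adjusted p = 0.0497). That count ranged from 0 to 9 under the alternatives run, being 0 without any 1 control library or without teriflunomide replicate 2, 1 without lurbinectedin replicate 2 or 3, 2 without lurbinectedin or combination replicate 1, and 5 and 6 when teriflunomide replicate 1 or replicate 3, respectively, was left out. In the combination against teriflunomide 25 of the 46 rose and 7 fell, where 35.2% of all genes were called higher and 35.8% lower, with MGME1 at 1.43 (adjusted p = 1.32e-08), TWNK at 1.86 (adjusted p = 4.26e-08) and PRORP at -2.92 (adjusted p = 1.18e-07). Whether the levels of these nuclear genes bear on the mitochondrial transcripts was not tested.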

How the data were processed

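RNA of 12 SBC3 libraries was sequenced after RNeasy Plus Mini purification and KAPA mRNA HyperPrep preparation, per the labels' protocols. The deposited values are raw read counts per gene, 1 file per library with 60649 rows. Per the submitters' processing notes, fastp 0.23.2, STAR 2.7.9, Subread and featureCounts were used with hg38; the strand setting, annotation and handling of multi-mapping reads are not given in the sources used here. Of the identifiers, 37318 matched GENCODE 29, all at the same position, and 60507 matched a table of symbols.

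The genes and lists were chosen with earlier results of these data known. edgeR 4.0.16 in R 4.3.3 (TMM scaling, filterByExpr, robust quasi-likelihood fit with 1 mean per group, Benjamini-Hochberg adjusted p under 0.05, 6 contrasts) was fitted to all 16683 genes that passed the filter; the biological coefficient of variation was 14.5%. Standard errors come from the F statistic. CPM values use TMM-scaled library sizes, except that marker CPM use total counts. Shares and levels per kb use total counts and the length in the files. Shares were compared over libraries by exact permutation with scipy 1.17.1. Every protein gene and rRNA is named, as are at most 6 tRNAs with the smallest adjusted p per contrast, 8 fixed genes of the 46 and at most 3 others in each direction. Nuclear copies were taken by symbol. Both procedures were tested on simulated data. Intervals reflect counting error alone, because PCR duplicates cannot be told from separate molecules here. Alternatives were DESeq2 1.42.0, other scalings and filters, a replicate block, a stricter threshold, only the groups compared, and leaving out each library.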

Additional observations from a re-analysis of the deposited data

How the results depend on the processing

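Depth was ample for the mRNAs and rRNAs, whereas MT-TF, MT-TK, MT-TH and MT-TC had few counts in some libraries and their fold changes are imprecise. Members called with no expression filter numbered 18 for teriflunomide, 1 for the combination against lurbinectedin and 14 for the interaction, against 0 in each with the filter. The share of all genes called in that fit is not given here, and the cause was not tested. Of the 46 nuclear genes, those called with teriflunomide (3) numbered 1 with library size only, 9 with no expression filter, 8 with DESeq2, 0 at an adjusted p under 0.01 and 1 with only the groups compared, and those called in the combination against lurbinectedin (0) numbered 1 with no expression filter and 2 with DESeq2. Deviations from the group mean had correlations between -0.51 and 0.21 in same-numbered libraries and between -0.31 and 0.51 in the other pairs. With so few libraries these values cannot settle whether the numbers pair the samples, which the labels do not state. With the replicate block the nuclear genes called with teriflunomide numbered 0, and the makeup measures called numbered 0 for lurbinectedin and 0 for teriflunomide, where that design has few arrangements; members called numbered 22 for lurbinectedin, 26 for the combination and 15 for the combination against teriflunomide. The median rho along the heavy-strand transcript with lurbinectedin was -0.88, and -1 over genes with no close nuclear copy, all of which lie after MT-CO3. MT-TT with lurbinectedin changed sign with library size only (-0.017).

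Leaving out 1 library at a time gave 0 to 6 members called for teriflunomide, 20 to 28 for lurbinectedin, 20 to 29 for the combination, 13 to 29 for the combination against teriflunomide and 0 to 1 against lurbinectedin. It gave 0 to 6, 0 to 16 and 0 to 2 of the nuclear genes called for teriflunomide, for the combination against lurbinectedin and for the interaction, the 16 and the 2 without teriflunomide replicate 3. Makeup measures called ranged from 8 to 14 for lurbinectedin and from 2 to 4 for teriflunomide, and the difference in mitochondrial share between the combination and lurbinectedin from -2.02 to 3.91 points. The median log2 fold change of the 13 protein genes in the combination against teriflunomide ranged from -0.40 to 1.11, and was negative without teriflunomide replicate 1 (-0.08) or 2 (-0.12) or combination replicate 2 (-0.40). For teriflunomide, single genes that changed sign ranged from -0.0777 to 0.0383 (MT-RNR1), -0.12 to 0.64 (MT-TH), -0.49 to 0.0057 (MT-TQ), -0.42 to 0.24 (MT-TS1), -0.33 to 0.55 (MT-TV) and -0.24 to 0.48 (MT-TW).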

Other observations

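Chosen after its values were seen, the ratio of MT-CO1 to MT-CO3 per length differed between the controls and all 3 teriflunomide libraries. Both encode subunits of cytochrome c oxidase. The ratio was 0.753, 0.766 and 0.780 in the controls and 1.05, 1.03 and 1.07 with teriflunomide, replicate 3 included, although the mitochondrial share of that library was far above that of the others. It was 1.27, 1.29 and 1.22 under lurbinectedin and 1.14, 1.23 and 1.18 in the combination group. The ratio of MT-RNR2 to MT-RNR1 per length, in contrast, was 12.3 in teriflunomide replicate 3 and 3.05 to 4.80 in the other 11 libraries. Both genes of the first pair have a near-identical nuclear copy, and the part of reads shared with the copies was not tested.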
